A study of Mus musculus with 16 samples.

Results

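The HOX genes of the mouse were described here across 8 stages of chemical reprogramming, from embryonic fibroblasts to induced pluripotent stem cells (iPSC). The members were 38 named protein-coding genes of the HOX A, B, C and D clusters, out of 21887 protein-coding genes in the RefSeq gene table of GRCm38.p6, and all 38 were found in that table. They comprised 10 genes of cluster A, 10 of cluster B, 9 of cluster C and 9 of cluster D. A member counted as having a peak in a list when a peak overlapped its span, or the 1 kb on either side of it, by at least 1 bp. Peaks that lay between the outermost members of a cluster but at no member were counted separately.

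The assay was ATAC-seq, which uses a transposase to cut and tag accessible DNA. The 16 samples formed 8 groups of 2: fibroblasts on day 0, cells on days 2, 4, 6, 8, 10 and 12 in reprogramming medium, and iPSC. Every group was labelled as coming from 129XOG2 embryos at embryonic day 13.5, so strain and origin did not differ between groups. The reprogramming cells started from fibroblasts of passages 1 to 3. The iPSC were grown on feeder cells in a medium with LIF at 1000 units/mL, the GSK3 inhibitor CHIR99021 at 3 µM and the MEK inhibitor PD0325901 at 0.2 µM, so feeder nuclei can be present in their lists. What the reprogramming medium contained is not stated in the labels used here. The deposited data were 8 peak lists, 1 for each stage, with no list per sample. No spread between replicates could be computed, no test between stages was possible, and every difference below is between single lists.

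HOX genes encode homeodomain transcription factors that give cells a position along the head-to-tail axis and along the limbs. In mammals they lie in clusters in which gene order follows the order of expression, with low paralogue numbers used anteriorly and early and high numbers posteriorly and late. Fibroblasts keep the HOX pattern of their site of origin. In pluripotent cells the clusters are typically held silent by Polycomb complexes, while they also carry an activating histone mark.

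The microRNA genes inside the clusters are shown first because, in the lists, only 2 of these 6 genes had a peak within 1 kb. The mature 5-prime arms of the miR-10 and miR-196 families, and the 3-prime arm of miR-615, are written from RefSeq with bases 2 to 8, the seed that pairs with targets, in capitals. The first pair of sequences shared the seed ACCCUGU and the second pair the seed AGGUAGU.
mmu-miR-10a-5p: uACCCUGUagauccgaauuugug
mmu-miR-10b-5p: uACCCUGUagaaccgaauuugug
mmu-miR-196a-5p: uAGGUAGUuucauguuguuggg
mmu-miR-196b-5p: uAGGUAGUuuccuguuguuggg
mmu-miR-615-3p: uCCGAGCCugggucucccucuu

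Mir196a-2, between Hoxc10 and Hoxc9, makes the miR-196a sequence above, a microRNA known to target HOX messages. It had a peak within 1 kb on days 8 and 10 and in no other list. The day 8 peak at chr15:102973692-102973899 lay 258 bp away, with a summit 8.79 times the background of its list. On day 10 the peak at chr15:102973504-102973803 lay 70 bp away, at 13.4 times the background. Both summits were below the median of all peaks of their list, 19.1 on day 8 and 17.6 on day 10. In the other 6 lists the nearest peak was between 2302 bp (day 0) and 6522 bp (day 12) away. Mir615, which lies in the span of Hoxc5, had a peak within 1 kb in all 8 lists, at 630 bp in iPSC and at 336 bp or less in the others. Mir10a, Mir10b, Mir196a-1 and Mir196b had none in any list. For Mir10a and Mir10b this rests on the 1 kb limit. The nearest peak lay 1028 bp from Mir10a on day 2 and 1029 bp from Mir10b on day 10.

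The lists differed in depth, and this bears on every count. The background pileup, the lowest local background recovered from a list's own fold and p-values, was 1.96 on day 0, 3.08 on day 2, 1.23 on day 4, 2.12 on day 6, 0.682 on day 8, 0.968 on day 10, 0.248 on day 12 and 1.90 in iPSC. Day 2 was the deepest list and day 12 the shallowest, while day 0 and iPSC were close. The median summit over background of a whole list was 19.1 on day 8, 17.6 on day 10 and 28.2 on day 12, against 9.45 to 12.2 in the other lists. Counts are therefore given as deposited and again after each deeper list was scaled down to the background of day 8, with weak peaks removed. Of the marker genes, 5 of 5 fibroblast genes had a peak on day 0 and 5 of 5 in iPSC, so those markers did not separate the labels, and 1 of 5 pluripotency genes had a peak on day 0 (Esrrb) against 5 of 5 in iPSC. Fibroblast markers with a peak numbered 3 on day 8, 4 on day 10 and 1 on day 12.

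As deposited, HOX genes with a peak were most numerous on days 2 and 10 and fewest on days 4 and 12. With deeper lists scaled to the background of day 8, they were most numerous on days 8 and 10. In the deposited lists, a peak lay at 19 of the 38 HOX genes on day 0, 31 on day 2, 14 on day 4, 27 on day 6, 27 on day 8, 33 on day 10, 13 on day 12 and 27 in iPSC. The exact Clopper-Pearson 95% interval of the share, which covers counting error only, was 33.4 to 66.6% on day 0. It treats the 38 genes as independent although some share peaks, and it does not measure differences between stages. The share was 86.8% on day 10 (71.9 to 95.6) and 71.1% in iPSC (54.1 to 84.6). Under the same rule, a peak lay at 66.2% of all protein-coding genes on day 0, 71.6% on day 2, 62.6% on day 4, 66.1% on day 6, 66.5% on day 8, 67.4% on day 10, 57.3% on day 12 and 69.2% in iPSC. The HOX share was below that of all genes on days 0, 4 and 12 and above it by the widest margin on day 10. HOX genes are short: their median span was 3.72 kb, against 17.2 kb for all protein-coding genes, so the shares of the HOX genes and of all genes are not matched for length.

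With deeper lists scaled to the background of day 8, the contrast was wider. Under this step the counts of deeper lists can only stay or fall, while that of day 8 is fixed. Scaled to the background of day 8, a peak remained at 6 HOX genes on day 0, 16 on day 2, 12 on day 4, 14 on day 6, 27 on day 8, 33 on day 10, 13 on day 12 and 17 in iPSC. For all protein-coding genes the scaled shares were 61.8% on day 0, 66.8% on day 2, 60.4% on day 4, 60.2% on day 6, 66.5% on day 8, 66.9% on day 10, 57.3% on day 12 and 64.8% in iPSC. The HOX share thus ran from 15.8% (6.02 to 31.3) on day 0 to 86.8% on day 10, while that of all genes stayed between 57.3% and 66.9%. Day 12 is shallower than day 8 and was not altered by this step. Scaled to the background of day 12 instead, a peak remained at 22 HOX genes on day 8 (62.3% of all genes), 17 on day 10 (60.5%) and 13 on day 12 (57.3%), against 0 to 4 in the other lists. At that depth the share of all genes was also lower in those lists, at 42.5% on day 0, 52.0% on day 2, 43.8% on day 4, 39.8% on day 6 and 43.9% in iPSC. The higher summit over background of the whole lists of days 8, 10 and 12 moved with this result, and its part in the counts was not tested.

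**Figure D1:**
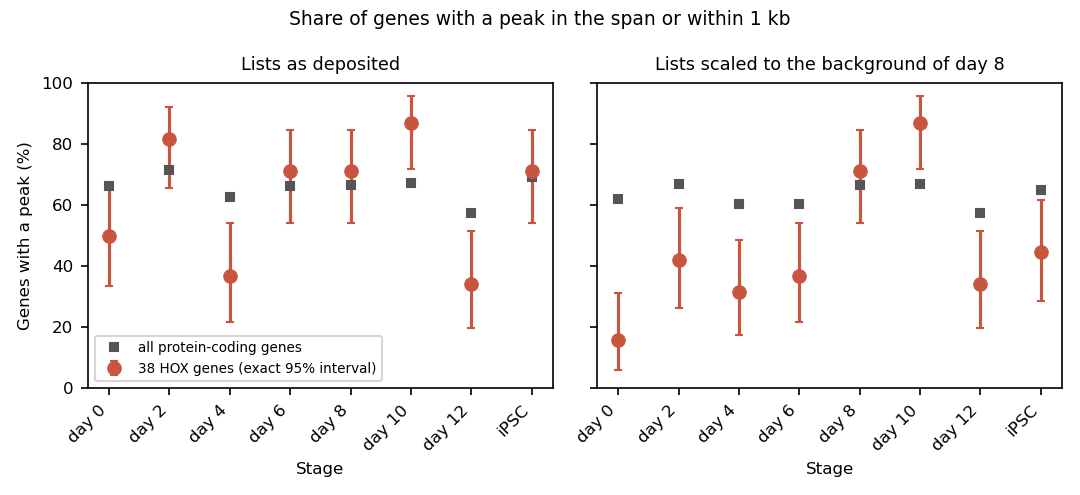
Share of genes with a peak in the span or within 1 kb (%) by stage. Circles are the 38 HOX genes with exact 95% intervals, which treat genes as independent, and squares are all protein-coding genes. Lists are as deposited (left) and scaled to the background of day 8 (right). On the right the HOX share runs from 15.8% on day 0 to 86.8% on day 10.

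Day 0 and iPSC had near-equal backgrounds and can be set side by side as deposited. Both lists had a peak at 17 of the 38 HOX genes, against 61.9% of all protein-coding genes. A peak in iPSC and not on day 0 was found at 10 HOX genes, namely Hoxa9, Hoxa13, Hoxb2, Hoxb7, Hoxc8, Hoxc10, Hoxc11, Hoxd1, Hoxd4 and Hoxd8, against 7.25% of all genes. The reverse held for Hoxa11 and Hoxb13, 2 of 38, against 4.22% of all genes. After scaling, 11 HOX genes had a peak in iPSC and not on day 0 (8.32% of all genes) and 0 had the reverse (5.35% of all genes). Hoxc8, Hoxc10 and Hoxd1 were in both sets of iPSC genes, whereas Hoxb3, Hoxb4, Hoxb9, Hoxc5, Hoxc9, Hoxc13, Hoxd9 and Hoxd11 entered because their day 0 peak was removed. Feeder nuclei may be present in the iPSC list, and their part in these counts was not tested.

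Hoxa3, Hoxb3, Hoxb9, Hoxc4, Hoxc5 and Hoxc13 had a peak in all 8, and these 6 compare with 48.2% of all genes. Only Hoxb5 had none in any list, against 21.5% of all genes. After scaling, Hoxa3 and Hoxc4 kept a peak in all 8 lists, against 45.2% of all genes, and Hoxa2, Hoxb5, Hoxc11 and Hoxd12 had none. The scaled share of all genes with none is not given here. Hoxc12, Hoxd1, Hoxd4 and Hoxd8 had a peak on day 8 or 10 and at none of days 0 to 6, against 2.47% of all genes. With scaling this set grew to 12, joined by Hoxa7, Hoxa13, Hoxb1, Hoxb2, Hoxb13, Hoxc9, Hoxd9 and Hoxd11, against 4.46% of all genes.

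The deposited lists covered the other members as follows. Hoxa2 and Hoxd12 had a peak on day 2 alone. Hoxc12 had one on days 8 and 10, Hoxd4 on day 10 and in iPSC, and Hoxd1 and Hoxd8 on days 8 and 10 and in iPSC. Hoxb6 had one on days 2, 8 and 10, Hoxa7 on days 2, 6 and 10, and Hoxc11 on days 2 and 6 and in iPSC. The day 2 list was the deepest, so that a peak there alone is where a weak site is most readily called. Hoxa11 had a peak on days 0, 2, 8 and 10, Hoxa13 and Hoxb2 on days 2, 8 and 10 and in iPSC, Hoxb8 on days 2, 6, 10 and 12, Hoxb1 on days 6, 8, 10 and 12, and Hoxc8 on days 2, 4 and 6 and in iPSC. A peak lay at Hoxa4 on days 0, 6, 8 and 10 and in iPSC, at Hoxa9 on days 2, 4, 6 and 10 and in iPSC, at Hoxa10 on days 2, 4, 6, 8 and 10, at Hoxb13 on days 0, 2, 6, 8 and 10, and at Hoxd11 on days 0, 2, 6 and 10 and in iPSC. Hoxb7 had a peak in every list but days 0 and 4, Hoxc9 and Hoxd9 in all but days 4 and 12, and Hoxd13 in all but days 4 and 8. Hoxa5 and Hoxa6 lacked one only on day 4, Hoxc10 only on day 0, and Hoxb4, Hoxc6, Hoxd3 and Hoxd10 only on day 12. Members are not independent, since the span of Hoxa3 holds those of Hoxa4, Hoxa5 and Hoxa6, the span of Hoxb3 that of Hoxb4, and the span of Hoxd3 that of Hoxd4.

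**Figure D2:**
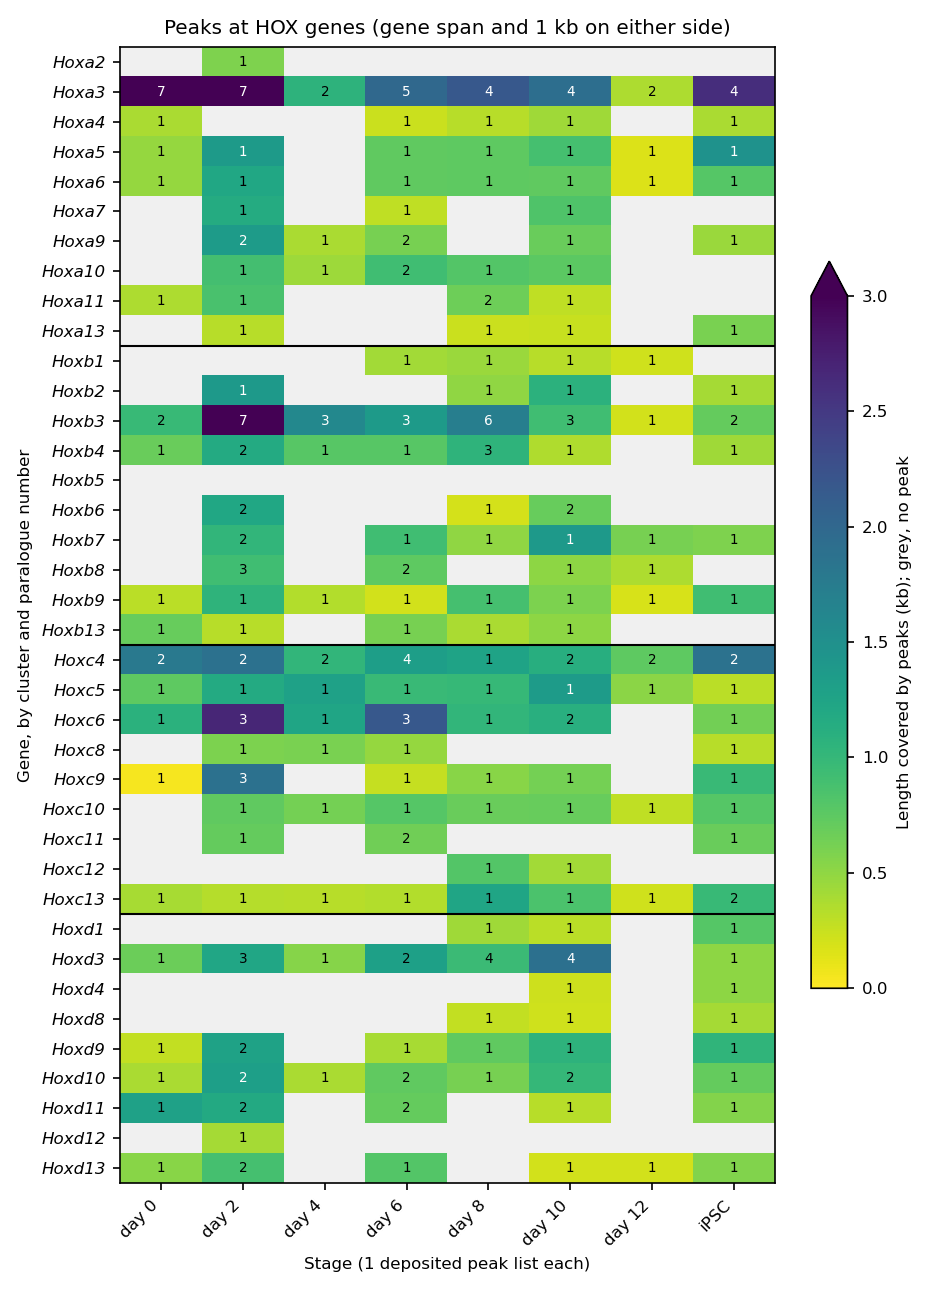
Length covered by peaks (kb, colour, grey for no peak) and number of peaks (digits) at each of the 38 HOX genes by stage, ordered by cluster and paralogue number. The rows of Hoxa3, Hoxb3, Hoxb9, Hoxc4, Hoxc5 and Hoxc13 are filled in all 8 lists and that of Hoxb5 in none.

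Some pairs of lists were set side by side. On day 2, 13 HOX genes had a peak that day 0 lacked, against 6.80% of all genes, and only Hoxa4 the reverse, against 1.32%. Day 2 is also the deeper list, and after scaling 10 HOX genes had a peak on day 2 and not on day 0, against 6.83% of all genes. Between days 6 and 8, scaled lists gained a peak at 15 HOX genes, among them Hoxa13, Hoxb1, Hoxb13, Hoxc12, Hoxd1 and Hoxd8, against 9.23% of all genes, and lost it at Hoxa9 and Hoxb8, against 2.96%. Set against iPSC, the scaled day 10 list had a peak at 17 HOX genes that iPSC lacked (6.90% of all genes), and iPSC had one at Hoxc8 that day 10 lacked (4.76%).

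By cluster, the counts at the background of day 8 were as follows. In cluster A, scaled lists had a peak at 3 of 10 genes on day 0, 7 on day 8, 9 on day 10 and 3 in iPSC. In cluster B the same counts were 0, 8, 9 and 3 of 10. In cluster C they were 2, 7, 7 and 7 of 9, so iPSC equalled days 8 and 10 under this scaling. Scaled to day 12, the cluster C counts for day 8, day 10 and iPSC were 7, 6 and 1, in lists of equal length 7, 6 and 5, and with scaled pileups rounded down 7, 7 and 4. Cluster D had 1, 5, 8 and 4 of 9, whereas in the lists as deposited it had 5, 5, 8 and 8, so that iPSC was not below days 8 and 10 there. By paralogue number, the anterior genes of numbers 1 to 3 had a peak at 1 gene on day 0, 6 on days 8 and 10 and 3 in iPSC, out of 7. The middle genes, numbers 4 to 8, had 4 on day 0, 10 on day 8, 13 on day 10 and 7 in iPSC, out of 15. The posterior genes, numbers 9 to 13, had 1 on day 0, 11 on day 8, 14 on day 10 and 7 in iPSC, out of 16. All 3 bands had more genes with a peak on days 8 and 10 than on day 0, and whether the bands differ in this was not tested. As deposited, the posterior genes with a peak numbered 15 on day 2, 11 on day 8 and 14 on day 10. The middle genes then numbered 11, 10 and 13 on these days, and the anterior genes 5, 6 and 6.

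In covered length, peaks took up a larger share of the clusters than of gene spans at large in every list. The share of the clusters was smallest on day 12. The clusters hold short genes, with a median span of 3.72 kb against 17.2 kb for all protein-coding genes. These shares are thus not matched for gene length or gene density, and they are from the lists as deposited. The cluster share was taken over the whole cluster and 1 kb at either end, including the DNA between members. Peaks covered 3.24% of the clusters on day 0, 8.99% on day 2, 2.07% on day 4, 4.34% on day 6, 4.28% on day 8, 4.86% on day 10, 0.879% on day 12 and 4.16% in iPSC. The same share over all protein-coding gene spans was 2.11%, 3.86%, 1.42%, 1.94%, 1.18%, 1.46%, 0.640% and 2.11% in that order. The ratio of these shares was therefore widest on days 8 and 10. The number of peaks in the clusters was 28 on day 0, 64 on day 2, 18 on day 4, 45 on day 6, 42 on day 8, 45 on day 10, 13 on day 12 and 32 in iPSC.

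**Figure D3:**
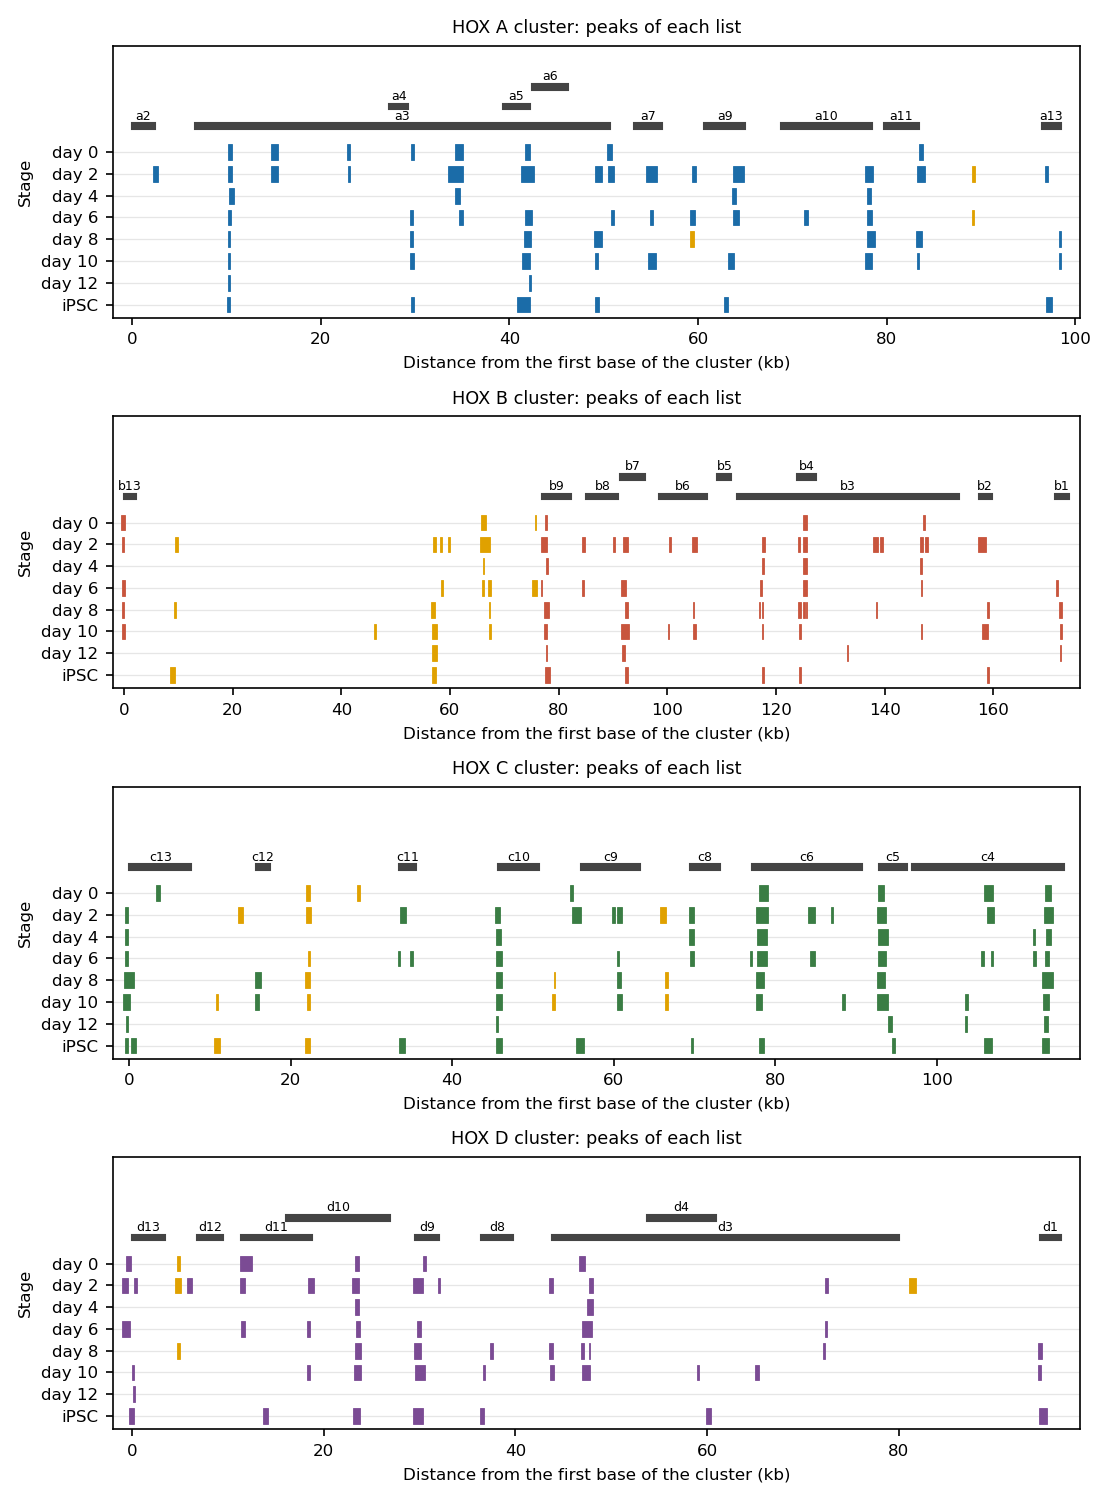
Peaks of each list along the HOX A, B, C and D clusters, in kb from the first base of the first member. Dark bars are the member genes (a2 is Hoxa2), coloured boxes are peaks at members and yellow boxes are peaks between members, which number 1 to 11 in a list.

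HOX peaks were of modest height. Their summit exceeded the median of their own list for 5 of 28 peaks on day 0, 18 of 64 on day 2, 7 of 18 on day 4, 16 of 45 on day 6, 22 of 42 on day 8, 20 of 45 on day 10, 3 of 13 on day 12 and 8 of 32 in iPSC. No HOX peak was among the highest 1% of any list. The median summit pileup of the HOX peaks was 7 on day 12, against 14.5 (day 8) to 23.5 (day 2) in the other lists. A ratio to background on day 12 thus rests on a lower pileup. On day 0, 28.6% of the HOX peaks passed the scaling to day 8, against 77.1% of the whole list. For iPSC the shares were 65.6% and 74.6%, and for day 10 they were 100% and 96.4%. In each list but that of day 8, most HOX peaks were thus at or below the median of the list. In summit over background, the highest of all was the day 8 peak at Hoxc13, a gene of hair and nail formation, at 55.7. The median of that list was 19.1. An iPSC peak between Hoxc13 and Hoxc12 stood at 53.2, in a list with a median of 11.1. The ranking thus depends on the scale of each list.

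In cluster A, Hoxa3, which patterns the pharyngeal arches, had the longest covered length and also the longest span. Peaks covered 3744 bp of it on day 0, 5768 on day 2, 1059 on day 4, 1981 on day 6, 2168 on day 8, 1918 on day 10, 365 on day 12 and 2602 in iPSC. Within it, the region chr6:52172495-52173251 was covered in all 8 lists, with a summit over background of 12.8 on day 0, 45.4 on day 8, 32.0 on day 10 and 16.3 in iPSC. On this measure days 8 and 10 were the highest there, above 28.2 on day 12, which equalled the median of the whole day 12 list. Hoxa5, needed for lung and thoracic patterning, was covered over 476 bp on day 0, 1366 on day 2, 0 on day 4, 730 on day 6, 740 on day 8, 887 on day 10, 158 on day 12 and 1469 in iPSC. These peaks lay at its start and were shared with Hoxa3 and Hoxa6. Hoxa11, a gene of the forearm and the female reproductive tract, was covered over 368 bp on day 0, 862 on day 2, 660 on day 8, 284 on day 10 and 0 in the other lists.

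Hoxa13, which patterns the digits and the hindgut, was open at different places in different lists. On day 8 a peak at chr6:52260667-52260904 and on day 10 a peak at chr6:52260664-52260918 overlapped the gene start, with summits 17.6 and 15.5 times the background. The day 2 and iPSC peaks, at chr6:52259192-52259510 and chr6:52259309-52259916, lay inside the gene with summits at 5.84 and 6.32. After scaling, the peaks of days 8 and 10 remained and the other pair did not.

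In cluster B, Hoxb9, a thoracic gene, was covered over 308 bp on day 0, 1048 on day 2, 344 on day 4, 209 on day 6, 885 on day 8, 592 on day 10, 181 on day 12 and 918 in iPSC. Its region chr11:96271043-96272669 was the only region of cluster B covered in all 8 lists, at 9.71 times the background on day 0, 35.2 on day 8, 42.4 on day 10, 24.1 on day 12 and 12.6 in iPSC. Hoxb7, a trunk gene, had no peak on days 0 and 4, 1030 bp on day 2, 925 on day 6, 499 on day 8, 1373 on day 10, 612 on day 12 and 578 in iPSC. Hoxb3, a hindbrain gene, went from 982 bp on day 0 to 709 bp in iPSC, with 4351 bp on day 2, 1600 on day 4, 1369 on day 6, 1711 on day 8, 918 on day 10 and 210 on day 12. Its top summit stood at 8.18 times the background on day 0, 7.47 on day 2, 13 on day 4, 9.45 on day 6, 27.9 on day 8, 40.3 on day 10, 28.2 on day 12 and 10.0 in iPSC.

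Hoxb13, the most posterior gene of cluster B and a regulator of tail and prostate, had its highest summits on days 8 and 10, and at the background of day 8 its peaks on those days alone remained. Its top summit was 5.11 times the background on day 0, 5.52 on day 2, 8.03 on day 6, 35.2 on day 8 and 37.2 on day 10, and no peak was listed on days 4 and 12 or in iPSC. The 5 peaks overlapped each other at the lower end of the gene, with that of day 10 at chr11:96193996-96194499. Covered length did not follow height, at 695 bp on day 0, 325 on day 2, 620 on day 6, 385 on day 8 and 504 on day 10.

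In cluster C, Hoxc10, a lumbar gene, had no peak on day 0 and 627 to 796 bp covered on days 2, 4, 6, 8 and 10 and in iPSC, with 285 bp on day 12. Its top summit was 13.6 times the background on day 2, 18.7 on day 4, 12.3 on day 6, 41.0 on day 8, 35.1 on day 10, 36.2 on day 12 and 9.48 in iPSC. Hoxc9, a thoracic gene, was covered over 43 bp on day 0, 1876 on day 2, 262 on day 6, 530 on day 8, 628 on day 10 and 964 in iPSC. Hoxc9 on day 0 was thus an edge overlap rather than a peak centred in the gene. Hoxc6 was covered over 1084 bp on day 0, 2681 on day 2, 1233 on day 4, 2172 on day 6, 1024 on day 8, 1112 on day 10, 0 on day 12 and 642 in iPSC. Hoxc5, the host of Mir615, had 748 bp on day 0, 1165 on day 2, 1289 on day 4, 971 on day 6, 990 on day 8, 1351 on day 10, 520 on day 12 and 312 in iPSC. Both were covered less in iPSC than on day 0, unlike Hoxc9 and Hoxc10. Hoxc13 had its day 0 peak inside the gene, at chr15:102924494-102924888, whereas all 7 later lists had one at the lower end, such as chr15:102920477-102921711 on day 8.

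In cluster D, Hoxd1, known for its part in pain-sensing neurons, had no peak on days 0, 2, 4, 6 and 12. On day 8 peaks covered 432 bp, on day 10 311 bp and in iPSC 787 bp, with top summits of 23.5, 15.5 and 6.85 times the background. All 3 peaks overlapped the gene start. Hoxd9, a limb and lumbosacral gene, had 280 bp on day 0, 1277 on day 2, 393 on day 6, 728 on day 8, 1062 on day 10 and 1035 in iPSC. Its top summit of 35.2 times the background on day 8 compares with 5.67 to 15.5 in the other lists that had a peak. Hoxd11, which acts with Hoxa11 in the forearm, had 1278 bp on day 0, 1176 on day 2, 709 on day 6, 323 on day 10, 557 in iPSC and 0 on days 4, 8 and 12. Hoxd3, which patterns the first neck vertebra, had 679 bp on day 0, 1220 on day 2, 549 on day 4, 1290 on day 6, 953 on day 8, 1895 on day 10, 0 on day 12 and 513 in iPSC.

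Promoter sequence is printed for Hoxa3 and Hoxd1, each the member of its cluster with the largest difference in covered length between iPSC and day 0, and for Hoxa5 and Hoxa13, chosen after their values were seen because their starts were covered in 7 lists and in 2 lists. The 250 bases before each start come from RefSeq, GRCm38.p6, read 5′ to 3′ on the gene's strand with CG dinucleotides in capitals. Hoxa13 is at chr6:52260881-52261130 (minus strand), Hoxa5 at chr6:52204588-52204837 (minus), Hoxa3 at chr6:52213068-52213317 (minus) and Hoxd1 at chr2:74762730-74762979 (plus).
Hoxa13: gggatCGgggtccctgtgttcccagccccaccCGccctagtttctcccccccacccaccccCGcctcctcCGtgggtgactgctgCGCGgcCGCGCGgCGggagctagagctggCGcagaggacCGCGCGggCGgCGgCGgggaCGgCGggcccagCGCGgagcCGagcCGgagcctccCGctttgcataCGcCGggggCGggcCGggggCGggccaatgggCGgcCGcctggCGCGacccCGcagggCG
Hoxa5: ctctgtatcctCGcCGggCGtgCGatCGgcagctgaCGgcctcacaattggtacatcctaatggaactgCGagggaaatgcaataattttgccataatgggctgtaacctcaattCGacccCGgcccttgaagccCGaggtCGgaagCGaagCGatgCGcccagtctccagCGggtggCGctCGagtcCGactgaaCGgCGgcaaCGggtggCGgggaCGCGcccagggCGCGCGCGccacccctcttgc
Hoxa3: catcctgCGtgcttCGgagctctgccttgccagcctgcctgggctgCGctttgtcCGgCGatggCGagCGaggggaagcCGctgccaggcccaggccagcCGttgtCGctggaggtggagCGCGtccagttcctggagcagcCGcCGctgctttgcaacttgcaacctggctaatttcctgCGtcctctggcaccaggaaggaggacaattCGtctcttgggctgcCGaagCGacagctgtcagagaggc
Hoxd1: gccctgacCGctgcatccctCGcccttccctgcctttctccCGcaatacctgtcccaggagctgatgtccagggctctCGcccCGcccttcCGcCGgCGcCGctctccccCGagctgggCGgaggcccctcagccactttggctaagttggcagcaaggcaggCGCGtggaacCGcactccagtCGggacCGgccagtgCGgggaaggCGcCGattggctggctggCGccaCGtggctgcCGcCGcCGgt

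These sequences hold 35 CG dinucleotides for Hoxa13, 28 for Hoxa5, 18 for Hoxa3 and 24 for Hoxd1. The window of 300 bases around the start, with 50 bases after it, was covered on days 8 and 10 for Hoxa13, in all lists but day 4 for Hoxa5, on days 0, 2 and 6 for Hoxa3, and on days 8 and 10 and in iPSC for Hoxd1. RefSeq windows were at hand for 22 of the 38 members, 24 windows in all, with a median of 14.5 CG dinucleotides (range 4 to 45) against 13 over 21263 protein-coding windows. No window was at hand for Hoxb13 and Hoxc9, the members with the largest difference in clusters B and C.

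The HOX starts with a window, most of them in clusters A and D, were covered less often than starts at large in every list. Of the 24 HOX windows, 6 were covered on day 0 (49.3% of all windows), 12 on day 2 (56.5%), 1 on day 4 (46.4%), 6 on day 6 (48.1%), 9 on day 8 (50.1%), 10 on day 10 (51.5%), 2 on day 12 (39.1%) and 8 in iPSC (52.5%). After scaling, 2 were covered on day 0 (46.5% of all windows), 1 on day 6 (43.8%), 9 on day 8 (50.1%), 10 on day 10 (51.3%) and 6 in iPSC (49.5%). With this scaling, days 8 and 10 again had the most covered HOX starts.

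Motif letters were counted in these windows on both strands. The E-box CACGTG was found in 5 HOX windows, all in cluster D (Hoxd1, Hoxd4, Hoxd10, Hoxd11 and Hoxd13), against 7.84% of all windows. Cluster C had only the window of Hoxc4, and cluster B only those of Hoxb1, Hoxb4 and Hoxb8. The clusters can therefore not be compared for motifs. TATAAA was found in 4 (Hoxa10, Hoxb8, Hoxd4 and Hoxd13), against 12.6%, and the PBX-HOX letters TGATNNAT in 4 (Hoxa2, Hoxb1, Hoxb8 and Hoxd11), against 7.45%. TAATTA, the homeodomain core, was found in both windows of Hoxd11, against 4.53% of all windows. TGACTCA, the AP-1 letters, whose reverse complement TGAGTCA gives the same windows, was found in 1 window of Hoxd11, against 4.66%. A match describes letters only and no binding was measured.

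Merged over the 8 lists, the clusters held 91 regions, 75 at members and 16 between members. Of these, 12 were covered on day 0 and in iPSC (shared), 16 on day 0 only of the 2 end points (MEF-only), 19 in iPSC only (iPSC-only) and 44 only on days between (intermediate-only). The HOX shares were 13.2%, 17.6%, 20.9% and 48.4%, against 10.2%, 19.3%, 19.4% and 51.1% of all 165616 regions, so as deposited they were near the background. At the background of day 8, 66 HOX regions remained, with 4 shared (10.5% of all regions), 4 MEF-only (18.7%), 17 iPSC-only (17.9%) and 41 intermediate-only (52.9%). MEF-only regions were 6.06% of the HOX regions there and intermediate-only regions 62.1%. The regions covered in all 8 lists numbered 3, at Hoxa3, Hoxb9 and, at chr15:103034132-103035489, Hoxc4. The share of all regions covered in all 8 lists is not given here, so whether this count is low or high is open.

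Between members, the highest region lay between Hoxc13 and Hoxc12, at chr15:102931609-102932385, with a summit 53.2 times the background in iPSC and 12.4 on day 10, and no peak elsewhere. The region chr15:102942948-102943644, between Hoxc12 and Hoxc11, was covered in 6 lists, at 24.9 times the background on day 8 and 24.8 on day 10 against 7.66 to 8.43 in the other 4. Also in cluster C, chr15:102986880-102987865 between Hoxc9 and Hoxc8, was covered on days 2, 8 and 10. In the gap between Hoxb13 and Hoxb9, chr11:96259921-96261800 was covered on days 0, 2, 4, 6, 8 and 10 and in neither day 12 nor iPSC, at 19.4 times the background on day 0 and 10.3 on day 10. Its neighbour chr11:96250895-96251939 had no peak on days 0, 4 and 6, and stood at 4.54 times the background on day 2, 23.5 on day 8, 25.8 on day 10, 28.2 on day 12 and 12.6 in iPSC. Both lie in the predicted gene Gm53. In the same gap, chr11:96202796-96204247 was covered on days 2 and 8 and in iPSC. In cluster A, chr6:52251402-52251722, between Hoxa11 and Hoxa13, was covered on days 2 and 6. In cluster D, chr2:74672717-74673284 between Hoxd13 and Hoxd12 was covered on days 0, 2 and 8, and chr2:74749272-74750033 between Hoxd3 and Hoxd1 on day 2.

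Genes that work with, control or resemble the HOX genes were counted by the same rule. All 9 TALE cofactors, the MEIS, PBX and PKNOX homeodomain partners of HOX proteins, had a peak in every list except days 8 and 12, which had 8. Of 20 Polycomb, trithorax and insulator genes, which keep HOX genes silent or active, between 18 (day 6) and 20 had a peak in each list. As deposited, these gene lists thus stood near their full size throughout. Scaled to day 12, the Polycomb, trithorax and insulator genes with a peak were more numerous on days 8, 10 and 12 than at the other stages. Of 8 genes of the Cdx, ParaHox and Evx families, relatives or upstream activators of HOX genes, 1 had a peak on day 0 (Evx1), 5 on day 2, 0 on day 4, 1 on day 6, 2 on day 8, 3 on day 10, 1 on day 12 and 6 in iPSC. Of 28 homeobox genes outside the clusters, from the Dlx, Lhx, Msx, Pax and Irx families, 22 had a peak on day 0, 27 on day 2, 16 on day 4, 22 on day 6, 22 on day 8, 21 on day 10, 12 on day 12 and 25 in iPSC. Scaled to day 8, these counts were 18, 22, 16, 11, 22, 21, 12 and 22 in the same order. At this scaling days 8 and 10 did not stand above day 2 and iPSC. At lower depth they did: scaled to day 12, these 28 genes had a peak at 6 on day 2, 17 on day 8, 14 on day 10 and 6 in iPSC, as for the HOX genes. With scaled pileups rounded down, the counts for these stages at the background of day 8 were 18, 22, 20 and 20. The difference between these genes and the HOX genes was not tested.

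The RNA genes inside the clusters can share peaks with the HOX genes beside them, so their counts are not independent of the HOX counts. Of 17, scaled lists had a peak at 2 on day 0, 8 on day 2, 3 on day 4, 5 on day 6, 10 on days 8 and 10, 3 on day 12 and 6 in iPSC. Hotairm1, a transcript of the anterior end of cluster A, had a peak in all 8 scaled lists. Hotair, a transcript of cluster C named for its reported action on cluster D, had a scaled peak on days 2, 8 and 10 and in iPSC. Hottip, at the posterior end of cluster A, had none in any list, nor had Mir10a, Mir10b, Mir196a-1 and Mir196b. Mir10a lies in the span of Hoxb3, which had a peak in all 8 deposited lists. The RNA genes thus did not always follow their neighbours.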

How the data were processed

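ATAC-seq was done on 16 samples, 2 for each of 8 stages, and the authors deposited 1 peak list for each stage. The build was mm10 and the tools were MACS2 2.1.2, deepTools 3.4.3, SAMtools, Bowtie2 2.2.5 and fastp 0.20.1, per the submitters' processing notes. Tool settings, the way in which a stage's samples were combined and any shift of reads for the transposase are not given in the sources used here. Each deposited list gives a score, a fold enrichment (ratio) at the summit and a −log10 p-value, as the authors' caller wrote them.

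Whole-number summit pileups and local backgrounds were recovered from the deposited fold and −log10 p-value, and in each list 99.998% or more of the peaks matched to 0.001. The background pileup of a list is the lowest value shared by at least 1% of its peaks. For scaling, pileups and backgrounds were multiplied by the ratio of background pileups, rounded to the nearest whole number, and kept if their Poisson −log10 p reached the lowest of the target list. Rounding down was run first and is biased against deeper lists; the choice was made after both were seen, and both are given. Pileups from PCR-amplified reads are not independent molecules.

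Peaks on chromosomes 1 to 19, X and Y were used. The members and gene lists were chosen with earlier results of these data known. In each cluster, genes with values per stage are the 2 with the largest difference in covered length between iPSC and day 0 in each direction. Between members, at most 3 regions per cluster are named, those covered in the most lists. Hoxc13, Hoxa6 and other members named beside them were chosen after their values were seen. Alternatives were other windows, shorter lists, a summit rule and the scalings. The recovery of pileups and backgrounds, the overlap calls and the covered lengths were tested on simulated peaks. The scaling and the region classes were not tested in this way. Python 3.11.15, NumPy 2.4.6, pandas 2.3.3, SciPy 1.17.1 and matplotlib 3.10.9 were used.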

Additional observations from a re-analysis of the deposited data

How the results depend on the processing

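The counts of HOX genes with a peak depended on depth. Scaling to the background of day 8 gave 6 on day 0, 16 on day 2, 14 on day 6 and 17 in iPSC, and with scaled pileups rounded down, an alternative chosen after seeing the data, 5, 11, 11 and 13. Scaling to the background of day 12 gave 0 on day 0, 4 on day 2, 4 on day 4, 1 on day 6, 17 on day 10 and 2 in iPSC. Lists of equal length gave 3 on day 0, 6 on day 2, 11 on day 6 and 14 in iPSC. The better-scored 50% of each list gave 3 on day 0, 9 on day 2, 5 on day 4, 6 on day 6, 14 on day 10, 2 on day 12 and 4 in iPSC. Days 8 and 10 had the highest counts under these 5 settings, but not as deposited, where day 2 (31) exceeded day 8 (27). No window, a 2.5 kb window or the summit rule left every stage within 1.5 times its count. Series of 8 counts below run in stage order, from day 0 to iPSC. Scaling to day 8 gave 8, 22, 14, 17, 42, 45, 13 and 21 peaks in the clusters, and 1, 1, 3, 3, 6, 6, 3 and 3 genes of paralogue numbers 1 to 3. The further counts were 4, 8, 5, 8, 10, 13, 6 and 7 genes of numbers 4 to 8, and 1, 7, 4, 3, 11, 14, 4 and 7 genes of numbers 9 to 13. Beside these were 0, 2, 0, 1, 2, 3, 1 and 4 Cdx, ParaHox and Evx genes, and 18, 22, 16, 11, 22, 21, 12 and 22 homeobox genes outside the clusters. There were also 2, 8, 3, 5, 10, 10, 3 and 6 RNA genes of the clusters with 4 shared, 4 MEF-only, 17 iPSC-only and 41 intermediate-only regions. The same with rounding down gave 6, 18, 12, 12, 42, 44, 13 and 16 peaks in the clusters, and 1, 1, 3, 3, 6, 6, 3 and 2 genes of paralogue numbers 1 to 3. It also gave 3, 6, 5, 5, 10, 12, 6 and 4 genes of numbers 4 to 8, and 1, 4, 4, 3, 11, 14, 4 and 7 genes of numbers 9 to 13. The further counts were 0, 2, 0, 1, 2, 3, 1 and 4 Cdx, ParaHox and Evx genes, and 16, 18, 16, 11, 22, 20, 12 and 20 homeobox genes outside the clusters. Beside these were 2, 7, 3, 4, 10, 10, 3 and 3 RNA genes of the clusters with 4 shared, 2 MEF-only, 12 iPSC-only and 44 intermediate-only regions. Scaling to day 12 gave 1, 3, 4, 1, 28, 24, 13 and 4 peaks in the clusters, and 0, 1, 0, 0, 5, 4, 3 and 1 genes of paralogue numbers 1 to 3. There were also 0, 2, 2, 0, 7, 5, 6 and 0 genes of numbers 4 to 8, and 0, 1, 2, 1, 10, 8, 4 and 1 genes of numbers 9 to 13. It also gave 0, 1, 0, 0, 1, 2, 1 and 1 Cdx, ParaHox and Evx genes, and 12, 13, 14, 13, 20, 19, 19 and 9 Polycomb, trithorax and insulator genes. The further counts were 7, 6, 3, 4, 17, 14, 12 and 6 homeobox genes outside the clusters, and 1, 1, 1, 0, 7, 6, 3 and 2 RNA genes of the clusters with 0 shared, 1 MEF-only, 4 iPSC-only and 32 intermediate-only regions. Lists of equal length gave 4, 5, 11, 11, 36, 33, 13 and 17 peaks in the clusters, and 1, 1, 3, 2, 6, 5, 3 and 2 genes of paralogue numbers 1 to 3. Beside these were 2, 3, 5, 6, 9, 9, 6 and 5 genes of numbers 4 to 8, and 0, 2, 4, 3, 11, 11, 4 and 7 genes of numbers 9 to 13. There were also 0, 1, 0, 1, 2, 3, 1 and 4 Cdx, ParaHox and Evx genes, and 14, 9, 16, 10, 19, 17, 12 and 19 homeobox genes outside the clusters. It also gave 2, 2, 3, 4, 8, 9, 3 and 3 RNA genes of the clusters with 2 shared, 2 MEF-only, 15 iPSC-only and 33 intermediate-only regions. The better-scored 50% gave 3, 9, 5, 7, 22, 20, 3 and 7 peaks in the clusters, and 1, 1, 0, 2, 3, 4, 0 and 2 genes of paralogue numbers 1 to 3. The further counts were 2, 5, 2, 2, 7, 4, 1 and 0 genes of numbers 4 to 8, and 0, 3, 3, 2, 9, 6, 1 and 2 genes of numbers 9 to 13. Beside these were 0, 1, 0, 1, 1, 1, 0 and 2 Cdx, ParaHox and Evx genes, and 9, 16, 10, 9, 13, 11, 7 and 12 homeobox genes outside the clusters. There were also 2, 4, 1, 3, 5, 5, 1 and 2 RNA genes of the clusters with 0 shared, 3 MEF-only, 7 iPSC-only and 23 intermediate-only regions. A 2.5 kb window gave 2, 6, 3, 2, 2, 3, 2 and 7 Cdx, ParaHox and Evx genes, and 10, 12, 5, 9, 12, 13, 3 and 9 RNA genes of the clusters. No window gave 1, 4, 0, 0, 2, 3, 1 and 6 Cdx, ParaHox and Evx genes, and 5, 8, 3, 3, 7, 8, 2 and 4 RNA genes of the clusters. The summit rule gave 1, 4, 0, 0, 2, 3, 1 and 6 Cdx, ParaHox and Evx genes. Region classes do not use the summit rule. No paired analysis was possible because each stage has 1 list and no column belongs to a sample, and leaving out a replicate could not be run for the same reason. Counting error, list-wide summit height and feeder cells in iPSC limit all counts.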
